A study of Mus musculus with 6 samples.

Results

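The epidermal growth factor receptor (EGF receptor) ligands and Errfi1 were followed in 6 clones of NIH3T3, an immortalized mouse fibroblast line. The family was chosen by gene symbol, with the difference between FEAT and control clones of its most changed gene, Hbegf, already known, so the differences of its members are given as a description, and how many of them a fit over all probes called is only counted, beside the share of all probes called. The list named 8 genes: Hbegf, Areg, Ereg, Btc, Tgfa, Egf, Nrg1 and Errfi1. Of these, 7 had probes, 12 in all, among 45281 probes and 19057 named genes on the array, and no probe was named for Areg in the annotation used here, so Areg was not analysed here. Hbegf read higher in all 3 FEAT clones than in any control clone, by 2.09-fold on average, Errfi1 was higher on average with overlapping groups, Btc varied between single clones of both groups, Nrg1 and Egf differed by less than their spread, and Tgfa and Ereg were not above background.

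The 3 FEAT clones, FEAT-3, FEAT-15 and FEAT-20, were stably transfected with the coding sequence of human FEAT behind the elongation factor 1alpha promoter in pEF-DEST51. They were picked as colonies after 7 days in 10 µg/ml blasticidin S and kept for their high FEAT protein. The 3 control clones, ΔccdB-1, ΔccdB-2 and ΔccdB-3, carried pEF-DEST51 without the ccdB gene and without FEAT, and how they were selected is not stated in the labels. All 6 lines derive from embryonic fibroblasts of NIH Swiss mice, each line is 1 clone, and each was hybridised once to a one-colour Illumina bead array.

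Ligands of this family are made as membrane-anchored precursors, cut free by cell-surface metalloproteases, and bind receptor tyrosine kinases of the ErbB family on the same or a neighbouring cell. Heparin-binding EGF (Hbegf), betacellulin (Btc) and epiregulin (Ereg) can engage both EGFR and ERBB4, amphiregulin (Areg), TGF-alpha (Tgfa) and EGF bind EGFR, and neuregulin 1 (Nrg1) binds ERBB3 and ERBB4. Errfi1, also known as Mig6, is an intracellular protein that EGF receptor signalling induces and that binds and inhibits the receptor kinase. Fibroblasts respond to ligands of EGFR with a rapid wave of early response transcripts.

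The arrays had median intensities of 81.9 to 88.2, and 36.9% to 39.8% of probes were brighter than the limit set for background on that array, an intensity of 96.3 to 102. All 10 fibroblast markers examined, among them Col1a1, Vim, Pdgfra and Thy1, were above the limit on all 6 arrays, with summed intensities of 41420 to 44110 in control clones and 44760 to 55120 in FEAT clones. Of 7 epithelial markers 5 were above it on 0 arrays, Epcam, Krt8 and Krt18 included, while Krt14 and Cdh1 were above it on all 6. Nearly all of the summed epithelial intensity, 15790 to 25830 in control and 20110 to 25990 in FEAT clones, came from Krt14 alone, and the other 6 markers summed to 472 to 523 and 479 to 515. Of 5 endothelial markers 4 and of 5 macrophage markers 3 were above the limit on 0 arrays, with Lyz2 and Cd14 above it on all 6. Summed macrophage intensities, mostly from Lyz2 and Cd14, were 1172 to 1511 and 1029 to 1407, and summed endothelial intensities, near background, 397 to 440 and 438 to 479. The part of these marker levels in the results was not tested. With 3 arrays a group, their number limits the precision.

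Hbegf, a heparin-binding ligand whose human form is also the receptor of diphtheria toxin, read an intensity of 515, 462 and 607 in ΔccdB-1, ΔccdB-2 and ΔccdB-3 on its brighter probe, and 1191, 1092 and 1003 in FEAT-3, FEAT-15 and FEAT-20. The groups did not overlap: the lowest FEAT clone read 1.65 times the highest control clone. The mean was 528 ± 73.3 for the control group and 1095 ± 94.0 for the FEAT group (SD, n = 3 clones each). On normalized log2 values, where the array background had been corrected, the FEAT clones were higher by 1.07 (SE 0.18), a 2.09-fold difference. In bulk RNA of a clone, fewer cells with the transcript and less of it in each cell cannot be told apart.

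Within each group Hbegf also varied between clones. On the normalized log2 values the control clones spanned 0.43 (SD 0.24) and the FEAT clones 0.62 (SD 0.32), and the lowest FEAT clone lay 0.52 above the highest control clone. In intensity, where background had not been corrected, the highest control clone read 1.31 times the lowest and the highest FEAT clone 1.19 times the lowest. ΔccdB-3 was the highest control clone and FEAT-3 the highest FEAT clone. Leaving out each clone in turn gave differences of 0.89 (without FEAT-3) to 1.20 (without ΔccdB-3) on the log2 scale.

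The other Hbegf probe is annotated to a separate cDNA clone record and not to the RefSeq transcript that the brighter probe is annotated to. It read 95.3, 88.7 and 86.4 in the control clones and 81.9, 111 and 99.0 in FEAT-3, FEAT-15 and FEAT-20. Only FEAT-15 was above its background limit, and the groups overlapped. No fold is given for this probe, because the control group measured no level. Which transcripts of Hbegf each probe reads was not tested, since probe sequences were not used here.

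**Figure D1:**
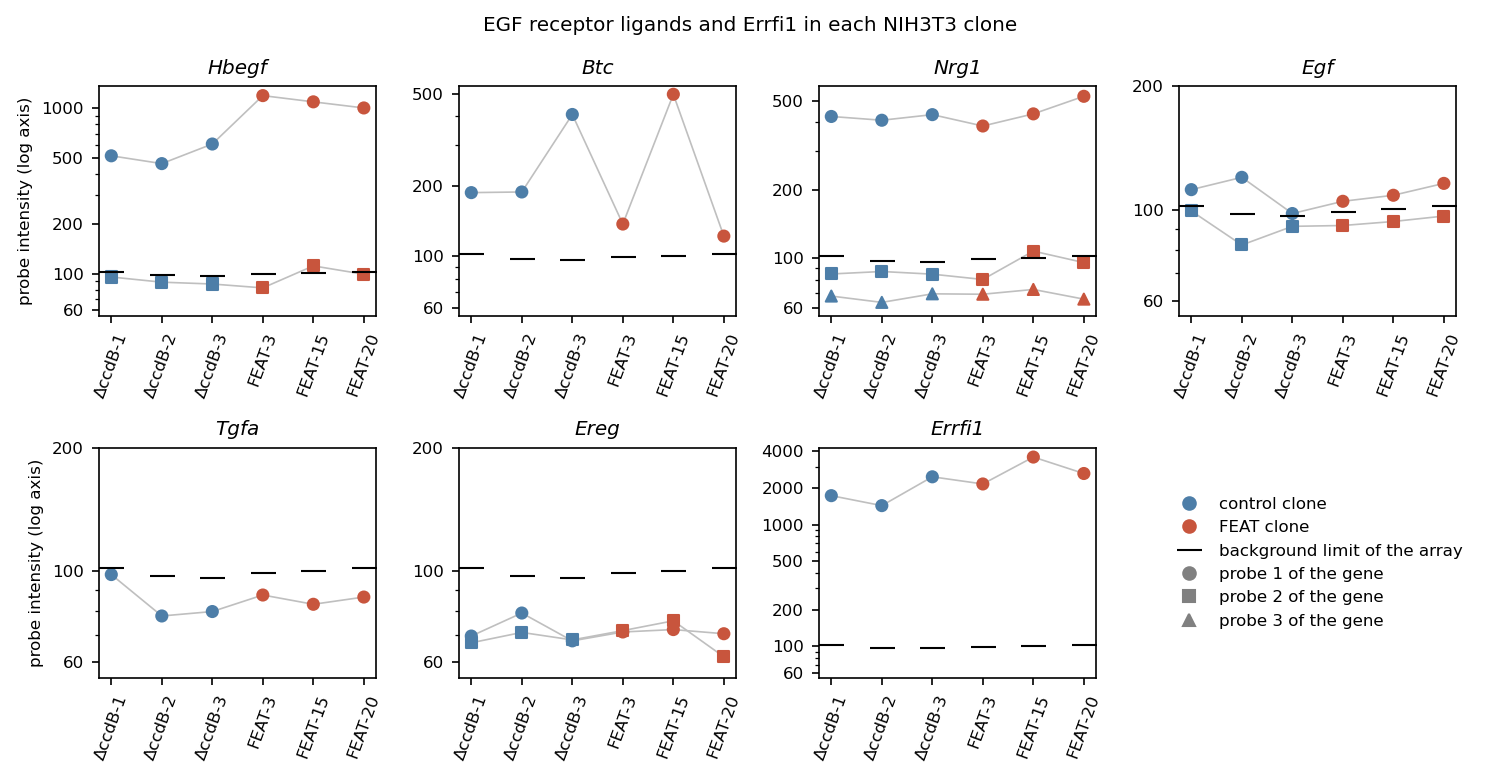
Probe intensity on a log axis in each of the 6 clones (blue, control; red, FEAT) for the 7 member genes with probes, with 1 symbol shape per probe, the background limit of each array as a black dash and grey lines that only join points of 1 probe. On the brighter Hbegf probe the 3 FEAT clones sit between 1003 and 1191, all above the control clones, while Btc is high in ΔccdB-3 and FEAT-15 and Tgfa and Ereg stay under the limit in all 6 clones.

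Btc, betacellulin, varied widely between clones within each group, and the groups overlapped. Its intensity was 188 and 189 in ΔccdB-1 and ΔccdB-2 but 408 in ΔccdB-3, and 138 and 122 in FEAT-3 and FEAT-20 but 498 in FEAT-15. The highest clone thus belonged to the FEAT group and so did the lowest. All 6 values were above the background limit. The highest FEAT clone read 4.08 times the lowest and the highest control clone 2.17 times the lowest, the widest spread within a group among the 12 member probes in both groups.

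The Btc group means were 262 ± 127 in control and 253 ± 213 in FEAT clones (SD, n = 3 each), and the log2 difference of -0.42 had an SE of 0.54. The sign and size of this difference depended on which clone was left out: it was -1.15 without FEAT-15, 0.08 without FEAT-20 and 0.05 without ΔccdB-3. Btc lies on mouse chromosome 5 beside the genes of other ligands, in the order Epgn, Ereg, Areg and Btc with no other protein-coding gene of the RefSeq table between them. Ereg was under the background limit in all 6 clones, and Epgn passed it on 1 of its 2 probes, in FEAT-15 alone.

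Egf, the founding ligand, stood just above background. Its brighter probe, annotated to a cDNA clone record, read 112, 120 and 97.9 in the control clones and 105, 108 and 116 in FEAT-3, FEAT-15 and FEAT-20. Every value was above its array's limit, by the smallest margin in ΔccdB-3, and the groups overlapped (log2 difference -0.04, SE 0.14). The probe annotated to the RefSeq transcript was under the limit in all 6 clones, between 82.1 and 99.3.

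Tgfa, a ligand often made by transformed cells, was under the background limit in all 6 clones, with intensities of 77.8 to 98.2 in control and 83.1 to 87.5 in FEAT clones. Both probes of Ereg, an inducible ligand, were also under it in all 6 clones, at 67.0 to 79.1 in control and 61.9 to 75.8 in FEAT clones. For these genes no fold is given, because neither group measured a level.

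Nrg1, the neuregulin, was clearly above background on 1 of its 3 probes. That probe read 425, 409 and 433 in the control clones and 386, 437 and 523 in FEAT-3, FEAT-15 and FEAT-20. The FEAT clones spanned the control clones on both sides. The means were 423 ± 12.3 and 448 ± 69.2 (SD, n = 3 each), and the log2 difference was 0.03 (SE 0.13). The second probe passed the limit in FEAT-15 alone, at 107 against 80.3 to 95.4 in the other 5 clones, and the third was under it in all 6, at 63.5 to 72.5. Nrg1 is transcribed into many isoforms, and which of them each probe reads was not tested.

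Errfi1, the receptor inhibitor, read 1729, 1432 and 2469 in ΔccdB-1, ΔccdB-2 and ΔccdB-3, and 2156, 3587 and 2628 in FEAT-3, FEAT-15 and FEAT-20. The groups overlapped, since ΔccdB-3 read higher than FEAT-3. The means were 1877 ± 534 in control and 2790 ± 729 in FEAT clones (SD, n = 3 each), and the log2 difference was 0.54 (SE 0.21). The single probe of this gene was far above background in all 6 clones. The difference was 0.37 without FEAT-15, 0.39 without ΔccdB-2 and 0.78 without ΔccdB-3. The highest control clone, ΔccdB-3, and the highest FEAT clone, FEAT-15, were the same for Errfi1 as for Btc.

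**Figure D2:**
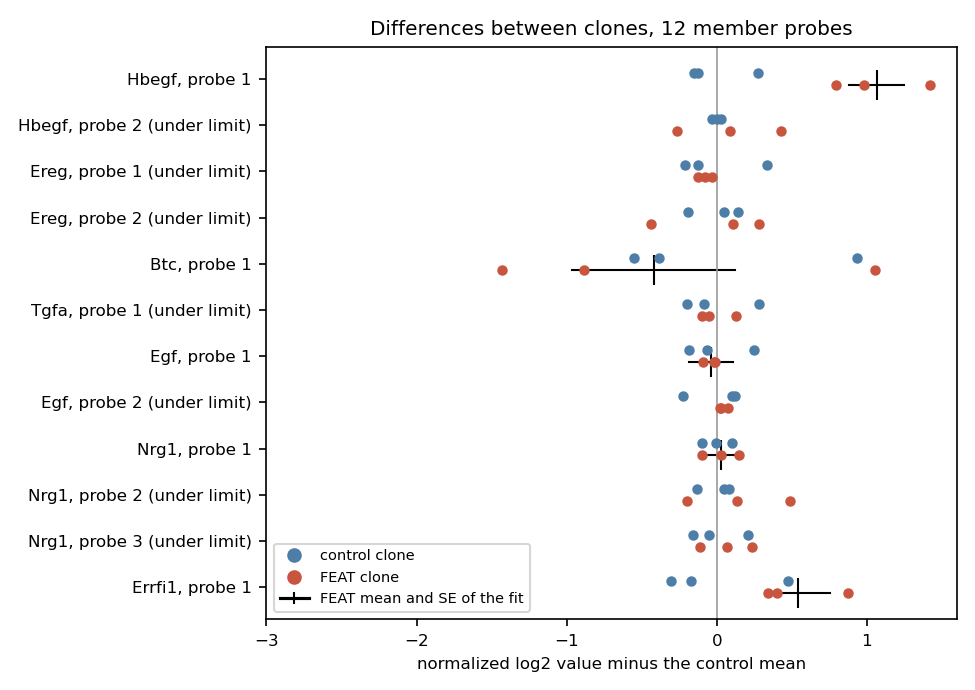
Normalized log2 value of each clone minus the control mean for the 12 member probes (blue, control; red, FEAT), with the FEAT mean as a vertical tick and its SE as a horizontal line for the 5 probes with a level above the background limit in both groups. The 7 probes marked as under the limit measured no level in at least 1 group. Only on the first Hbegf probe, at 1.07, do the 3 FEAT clones lie above all 3 control clones, and on the Btc probe the clones of each group lie far apart.

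Because Btc and Errfi1 had the widest ratio of highest to lowest intensity within a group among the members above background, the sequence before their transcription starts is shown, from RefSeq on build GRCm38.p6, 250 bases read 5′ to 3′ on the gene's strand and ending at the base before the start. RefSeq gives 2 starts for Errfi1. The downstream start is shown (chr4:150854820-150855069, plus strand), and for Btc the single start (chr5:91402995-91403244, minus strand). Capitals mark the cAMP response element TGACGTCA.
Errfi1: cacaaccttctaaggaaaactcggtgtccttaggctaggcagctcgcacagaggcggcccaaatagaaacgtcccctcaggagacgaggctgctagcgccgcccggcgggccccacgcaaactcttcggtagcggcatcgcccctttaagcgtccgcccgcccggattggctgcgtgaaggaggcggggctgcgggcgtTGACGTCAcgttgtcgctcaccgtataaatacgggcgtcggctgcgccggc
Btc: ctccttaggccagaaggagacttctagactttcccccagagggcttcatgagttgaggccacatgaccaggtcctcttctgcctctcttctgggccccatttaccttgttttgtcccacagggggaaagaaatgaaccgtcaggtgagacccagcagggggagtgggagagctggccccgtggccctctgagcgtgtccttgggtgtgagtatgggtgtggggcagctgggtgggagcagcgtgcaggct

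Of the 8 listed genes, 5 had a window that was searched, 7 windows in all: Areg, Btc, Egf, Errfi1 and Tgfa. Member windows on 1 chromosome were left out before this count. Hbegf, Ereg and Nrg1 had no window that was searched. Ereg lies on chromosome 5, which was not left out, so no window of the needed length was found for Ereg. For Hbegf and Nrg1 these counts do not say whether a window was lacking or left out. The letters TGACGTCA, the same on both strands, stood 51 to 44 bases before the downstream Errfi1 start, and 61 to 54 bases before the start of Areg, which had no probe. They occurred in 1.55% of 32851 windows of the same length. The AP-1 motif TGANTCA (6.75% of windows), the EGR1 motif GCGTGGGCG (0.536%) and the CArG box (1.47%), each searched on both strands, matched none of the 7 windows. These 7 do not include Hbegf, so nothing is said here of motifs before its start. The TEAD motif CATTCC (12.6%) matched 1, before the upstream Errfi1 start. These matches describe letters only, and no motif searched was found before the Btc start.

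Over the whole array limma called 50 of 27169 tested probes, 0.184%, at an adjusted p under 0.05. Of the 12 member probes 9 passed the filter on low signal and 0 were called, with 2 at an unadjusted p under 0.05, where 9.08% of all tested probes were. On 1 of the 9, the brighter Hbegf probe, the groups did not overlap, against 14.1% of all tested probes. The count of member probes called was 1, the brighter Hbegf probe, under 3 of 7 other settings, and when FEAT-20 was left out but with none of the other 5 clones left out. Over the array these 3 settings called 53 of 27169 probes (median scaling), 51 of 45281 (no filter) and 68 of 27169 (trended robust variance model). Without FEAT-20 it was 62 of 27169. Since the values of Hbegf led to the choice of the family, the member counts are given beside the background and nothing is drawn from them.

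The pattern over the 6 clones was compared with that of the 9406 other named genes above background on at least 3 arrays. For Hbegf the 4 genes with the highest Pearson r over 6 clones were Hnrnpdl, an RNA-binding protein (0.994), Thbs1, the matrix protein thrombospondin (0.993), Ttll3, a tubulin-modifying enzyme (0.993), and the kinase gene Tlk1 (0.992). The FEAT minus control differences of Hnrnpdl, Ttll3 and Tlk1 were 0.41, 0.34 and 0.22 on the log2 scale. Thbs1 was above the limit in all FEAT clones but in ΔccdB-3 alone among the control clones, so its r rests in part on values under background and no difference is given for it. A total of 170 genes had an r over 0.9 with Hbegf, and 11 of them were under the limit on every array of 1 group. The 6 points share clone and array, and for Hbegf they also carry the difference between groups, so these values only describe.

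Errfi1 was most like Ppbp, a chemokine gene (r = 0.998), Fbxo45, a ubiquitin ligase subunit (0.993), the transcription factor gene Vezf1 (0.977) and Dusp6, the ERK phosphatase induced by MAP kinase signalling (0.974). Dusp6 read 5314, 3996 and 6736 in the control clones and 5244, 8089 and 6588 in FEAT-3, FEAT-15 and FEAT-20. As with Errfi1, ΔccdB-2 was the lowest clone and FEAT-15 the highest. Btc was most like Snrnp35, a spliceosome component (0.986), the polyadenylation factor gene Fip1l1 (0.979), Socs6, a suppressor of cytokine signalling (0.973), and Mmd (0.966). On the normalized log2 scale Mmd was 11.45 in ΔccdB-3 and 11.86 in FEAT-15 and between 10.12 and 10.58 in the other 4 clones. Nrg1 was most like Vps9d1, Gstcd, Pnpla6 and Ttll4 (0.978, 0.974, 0.963 and 0.957). Egf was most like Coro1a, which was above the limit in 2 clones of each group, and Arf3, Slc25a3 and Vma21 (0.986, 0.981, 0.976 and 0.975). Genes with an r over 0.9 numbered 100 for Errfi1, 93 for Egf, 60 for Btc and 44 for Nrg1.

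**Figure D3:**
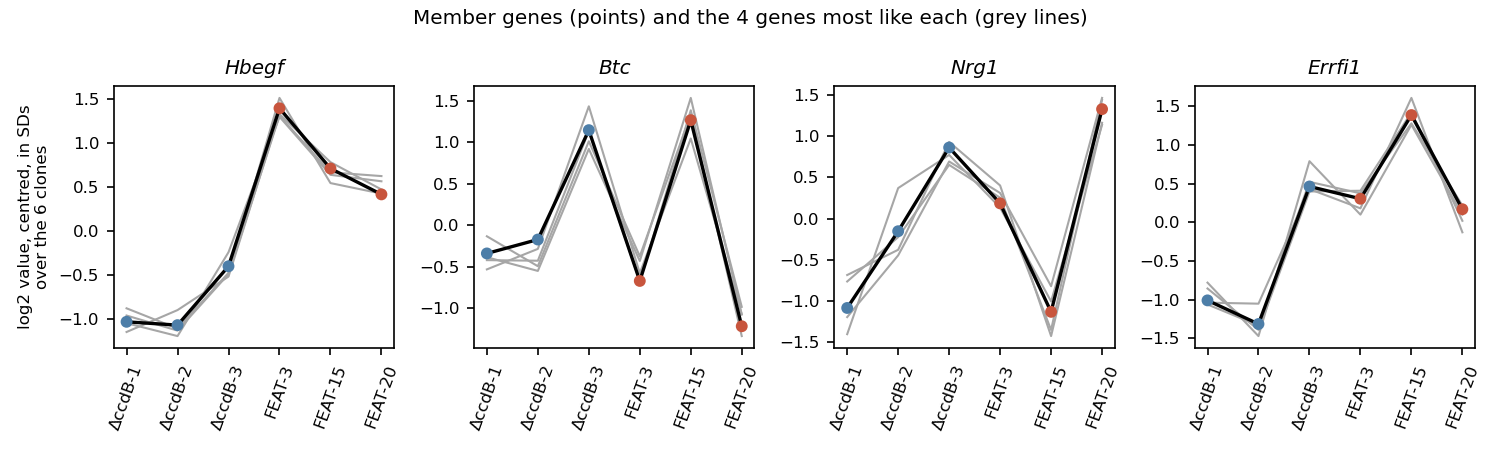
Normalized log2 values over the 6 clones, centred and in SDs, of the brightest probe of Hbegf, Btc, Nrg1 and Errfi1 (black lines; points blue for control and red for FEAT clones) and of the 4 genes most like each (grey). The lines join clones only to show the pattern, which for Hbegf separates the groups and for Btc and Errfi1 peaks in FEAT-15.

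The comparison then asked whether other genes of the pathway differed between FEAT and control clones. Over 6 lists with 103 genes, none a member, 93 genes had a probe and 84 passed the filter, and 2 rose and 0 fell at an adjusted p under 0.05 (limma, brightest probe of each gene). Over all 13315 genes tested, 0.135% rose and 0.0901% fell. At an unadjusted p under 0.05 there were 22 of the 84, against 10.1% of all genes. The median difference of the 84 genes was 0.15, with 53 positive, against 0.0071 over all genes tested. All 6 lists were written with earlier results of these data known. Both the 2 genes called and 11 of the 22 came from the list of early EGF response genes. These counts and medians therefore only describe. Of the 84 genes 13 were under the background limit on every array of at least 1 group, 9 of them in both groups, and their differences are not measured folds.

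Receptors came first. Egfr, the receptor of most of these ligands, read 214 ± 23.2 in control and 262 ± 15.6 in FEAT clones (SD, n = 3 each) on its brightest probe, a log2 difference of 0.34 (limma, SE 0.17, adjusted p = 0.597). Its clones read 213, 192 and 238 against 275, 245 and 266, without overlap in intensity but with overlap on normalized values. Of its other probes 2 that were above background in all clones gave 0.61 each (adjusted p = 0.248 and 0.161), 1 gave 0.36 and 2 were not above background on any array. Erbb2, the co-receptor without a ligand of its own, read 412 ± 48.9 and 492 ± 143 (log2 difference 0.18, adjusted p = 0.826). Erbb3 and Erbb4, the neuregulin receptors, were under the background limit on all 6 arrays. Of the 2 tested receptors 0 were called, and 0 had an unadjusted p under 0.05.

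Of the remaining ligands, Epgn, epigen, was under the limit in all control clones and above it in FEAT-15 alone, at 105. Nrg3 and Nrg4 were under it in all 6 clones. Of these 3 genes 0 were called by limma and 1, Nrg3, had an unadjusted p under 0.05, on values below background.

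Among 15 tested genes of ligand shedding 0 were called, 2 had an unadjusted p under 0.05 and 10 were positive, with a median of 0.12. Adam17, the main sheddase of most of these ligands, read 733 ± 101 in control and 785 ± 92.6 in FEAT clones (log2 difference 0.04, adjusted p = 0.949). Adam12, a metalloprotease known to cut Hbegf, read 81.6, 78.0 and 81.7 in the control clones, all under the limit, and 134, 129 and 104 in the FEAT clones, all above it. The FEAT clones were at least 1.36-fold higher on background-corrected values, where the limit stands in for the control level (limma, adjusted p = 0.111), and the call was made only without FEAT-20 (adjusted p = 0.0171). Its other probe was under the limit on all arrays. Timp3, an inhibitor of Adam17, read 5201 ± 656 and 8476 ± 1198 (log2 difference 0.68, adjusted p = 0.149), with 0.17 and 0.37 on its other probes, and passed with the trended robust variance model (adjusted p = 0.0446). Rhbdf1, which escorts Adam17 to the surface, differed by 0.30 (adjusted p = 0.573).

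Receptor adaptors and the kinase cascade gave 0 calls among 16 tested genes, 8 positive and 8 negative, a median of 0.0058 and 1 unadjusted p under 0.05. That gene, the kinase Akt1, was under the background limit in all FEAT clones and above it in 2 control clones, at least 1.11-fold lower in FEAT clones (adjusted p = 0.429). Stat5a, a transcription factor, differed by -0.31 and the docking protein gene Gab1 by 0.27 (adjusted p = 0.580 and 0.621).

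Attenuators of the receptor and of the kinases below it, the class to which Errfi1 belongs, gave 0 calls among 25 tested genes, with 7 at an unadjusted p under 0.05 and a median of 0.067. They went opposite ways. Dusp5, a nuclear ERK phosphatase, read 392, 446 and 681 in the control and 768, 1002 and 1135 in the FEAT clones (log2 difference 0.97, adjusted p = 0.155). Dusp4, a related phosphatase, read 867, 636 and 1436 in the control and 443, 551 and 452 in the FEAT clones (-1.06, adjusted p = 0.178). Dusp4 was called lower without ΔccdB-2 (adjusted p = 0.0360), and its other probes gave -0.97, -0.58 and -0.71. Spred2, an inhibitor of RAF activation, differed by -0.42 (adjusted p = 0.325).

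Early EGF response genes, transcripts that EGF and serum induce within the first hours, held both calls. Junb, an AP-1 subunit, read 835, 877 and 780 in the control clones and 1979, 1872 and 1759 in the FEAT clones, and rose 2.22-fold (limma, log2 difference 1.15, SE 0.16, adjusted p = 0.0211). Egr1, a zinc finger factor, read 4444, 4500 and 4972 in the control clones and 8310, 8828 and 11721 in the FEAT clones, and rose 2.01-fold (limma, SE 0.15, adjusted p = 0.0237). In both genes every FEAT clone lay above every control clone. Fosl2, another AP-1 subunit, read 1267 ± 175 and 2377 ± 186 (log2 difference 0.88, adjusted p = 0.0580), while 2 other probes were under the limit in all FEAT clones.

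Of the 23 tested early response genes 17 were positive and 11 had an unadjusted p under 0.05, with a median of 0.35. The list was written with these results known and is not independent evidence of its direction. The median over the list, relative to the control mean, was 0.52, 0.34 and 0.28 in FEAT-3, FEAT-15 and FEAT-20, and -0.032, -0.014 and 0.099 in ΔccdB-1, ΔccdB-2 and ΔccdB-3. For the median of this list and for Hbegf alike, FEAT-3 stood highest and ΔccdB-3 was the highest control clone. Single genes of the list did not all follow this order in intensity. Egr1 was highest in ΔccdB-3 among control clones but lowest in FEAT-3 among FEAT clones. Junb was highest in FEAT-3 among FEAT clones but lowest in ΔccdB-3 among control clones. The calls rested on few clones: Junb had an adjusted p of 0.172, 0.102 and 0.0691 without ΔccdB-1, ΔccdB-3 and FEAT-3, and Egr1 of 0.186, 0.0817, 0.0874 and 0.0556 without ΔccdB-1, ΔccdB-3, FEAT-3 and FEAT-20.

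**Figure D4:**
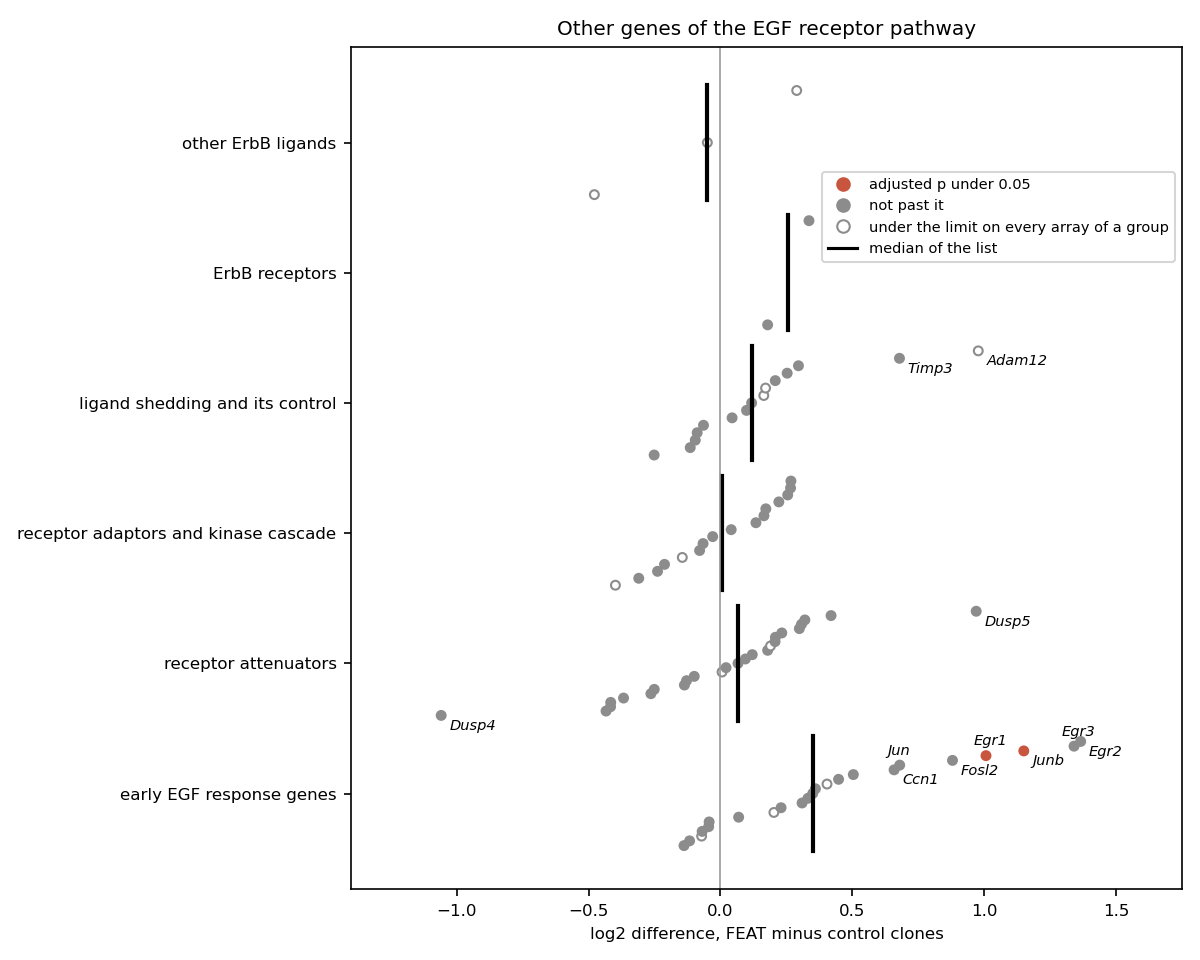
Log2 difference, FEAT minus control clones, of the 84 tested genes of 6 pathway lists on their brightest probe, with a black line at each list's median red points for the 2 genes past an adjusted p of 0.05 and open points for the 13 genes under the background limit on every array of a group. Genes that differed by more than 0.65 in either direction are labelled, and most of these are early response genes.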

How the data were processed

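Total RNA of the 6 clones was extracted on RNeasy columns, amplified and labelled with Cy3 per the labels' protocols, and read out with BeadStudio, per the submitters' processing notes. The deposited values were linear probe intensity values without detection p, with lowest values of 50.1 to 53.1, so background had not been subtracted. The series-wide deposited table was these intensity values times 1 factor per array (0.925 to 1.10).

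In R 4.3.3 with limma 3.58.1, normexp was fitted to the signals (offset 16), followed by quantile normalization and log2. The top 60% of probes by mean were tested with lmFit and eBayes, two-sided, with Benjamini-Hochberg adjustment over all of them. An exact permutation test of 3 against 3 cannot go below p = 0.1. The background limit of an array lay 3 SDs over the mode of its log2 intensities, with the SD taken from values under the mode. A gene was counted by its brightest probe, and a bound sets the limit in place of a dim group's value.

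In the GEO platform annotation 34885 probes had 1 gene, 18 had several and 10378 were unnamed here. Members, lists and tests were chosen with earlier results of these data known. Named are all members, each list's called genes and the 3 with the smallest p, and the 4 genes most like each member above background. Adam17 and some labelled points of the pathway plot, among them Egr2, Egr3, Jun and Ccn1, lie outside this rule or were named after their values were seen. Dusp6 is named under the rule, as a gene most like Errfi1. Of these steps, only the limma fit with its adjustment was tested on simulated log2 values.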

Additional observations from a re-analysis of the deposited data

How the results depend on the processing

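The Hbegf difference on the brighter probe lay between 1.01 and 1.09 on the log2 scale over 7 settings of background correction, scaling, input values, filter and variance model, and between 0.89 and 1.20 with a clone left out. Its other probe gave no value, since it was under the background limit in all control clones and in 2 of 3 FEAT clones. The differences of the other 4 member probes with a level in both groups moved by less than the SD between clones within groups in all 52 comparisons with another setting or without a clone. A move within that SD can still change the sign. With a clone left out, Btc ran from -1.15 to 0.08, Egf from -0.13 to 0.08 and Nrg1 from -0.03 to 0.09. Errfi1 stayed positive, from 0.37 to 0.78. Over the array, limma called 38 to 68 probes in those settings and 0 to 158 with a clone left out: 0 without ΔccdB-1 (1934 at an unadjusted p under 0.05), 158 without ΔccdB-2, 10 without ΔccdB-3 and 18 without FEAT-3. The number of pathway genes called was 2, but 3 with median scaling, which added Fosl2, 4 with the trended robust variance model, which added Fosl2 and Timp3, and 0 to 5 with a clone left out: 0 without ΔccdB-1, ΔccdB-3 or FEAT-3 and 5 without ΔccdB-2. No paired analysis was made, because the clone numbers of the groups (1, 2, 3 and 3, 15, 20) name separate clones and do not pair them. Dim probes are limited by their signal over background, and 7 of the 12 member probes were under the limit on at least 1 array.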
